A study of Mus musculus with 15 samples.

Results

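Fatty acids enter metabolism as coenzyme A thioesters, and 10 transcripts of the enzymes that make and lengthen these acyl-CoAs were followed in mouse 3T3-L1 cells: 5 acyl-CoA synthetases (Acsl1, Acsl3, Acsl4, Acsl5 and Acss2) and 5 enzymes of the elongation cycle (Elovl1, Elovl5, Hacd2, Hsd17b12 and Tecr). They were taken by symbol, through the Entrez Gene number, from the 26301 gene numbers counted in every library, and all 10 were found. 3T3-L1 is a line of mouse preadipocytes that become adipocytes after insulin, dexamethasone and IBMX. All 15 RNA-seq libraries were from day 2 of that treatment, with 3 libraries in each of 5 groups. In the knockdown set, cells carrying the empty shRNA vector (shEmpty in the labels, sh-Empty here) were compared with cells carrying an shRNA against Jmjd1a (sh-Jmjd1a). In the rescue set, all cells carried the shRNA against Jmjd1a and in addition expressed LacZ, JMJD1A(WT) or JMJD1A(H1122A), the last a mutant of the site that holds the catalytic iron. JMJD1A is the histone H3 lysine 9 demethylase encoded by Kdm3a. The constructs were delivered by pMXs-based retroviral vectors and stable lines were selected with antibiotics, and nothing in the labels says that the 3 libraries of a group came from separate infections or cultures, so the p-values measure the spread between these libraries, which may be technical.

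Long-chain acyl-CoA synthetases (Acsl) attach coenzyme A to long-chain fatty acids and thereby commit them to triglyceride, phospholipid or oxidation, and Acsl1 is a well known adipocyte gene of this family. Acss2 does the same for acetate. The elongation cycle of the endoplasmic reticulum adds a pair of carbons from malonyl-CoA to a long-chain acyl-CoA in 4 steps. An elongase (Elovl) condenses the chains, Hsd17b12 reduces the 3-keto group, a dehydratase such as Hacd2 removes water, and Tecr reduces the remaining double bond. The elongase sets the substrate: Elovl1 acts on saturated and monounsaturated very long chains, as used in sphingolipids, whereas Elovl5 acts on polyunsaturated fatty acids.

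Sequences around the start sites of 4 transcripts are shown because these genes carry the results, Acsl1, Elovl1 and Hacd2 as the members with the largest losses on knockdown and Elovl5 as a member with the opposite pattern. RefSeq windows of 300 bases, 250 before and 50 after an annotated start, were at hand for all 10 members in 12 windows on GRCm38.p6. They were searched on both strands for CCAAT, the E-box CACGTG, the core of a sterol response element (TCACNCCAC), the nuclear receptor half-site AGGTCA, the half-site AGGNCA repeated head to tail with 1 base between (DR1, of which AGGTCA can be part) and the C/EBP core TTGCNNCAA. Capitals mark these letters on either strand, and positions are counted from the start site. The windows were chr8:46490716-46491015 for the downstream of the 2 starts of Acsl1, chr4:118429451-118429750 for the downstream of the 2 starts of Elovl1, chr16:35022171-35022470 for Hacd2 and chr9:77917115-77917414 for Elovl5, each read 5′ to 3′ on the plus strand.
Acsl1: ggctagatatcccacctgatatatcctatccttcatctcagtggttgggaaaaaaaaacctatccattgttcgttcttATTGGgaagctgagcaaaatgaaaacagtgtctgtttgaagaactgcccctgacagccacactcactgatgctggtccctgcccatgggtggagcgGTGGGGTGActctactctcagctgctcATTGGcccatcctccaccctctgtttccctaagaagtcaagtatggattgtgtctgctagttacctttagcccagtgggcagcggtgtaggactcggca
Elovl1: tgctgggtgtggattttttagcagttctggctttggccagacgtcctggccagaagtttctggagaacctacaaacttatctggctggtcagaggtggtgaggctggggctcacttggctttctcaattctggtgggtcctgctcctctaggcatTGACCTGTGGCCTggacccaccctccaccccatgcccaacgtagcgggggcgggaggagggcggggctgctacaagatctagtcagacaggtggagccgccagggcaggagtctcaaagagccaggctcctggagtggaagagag
Hacd2: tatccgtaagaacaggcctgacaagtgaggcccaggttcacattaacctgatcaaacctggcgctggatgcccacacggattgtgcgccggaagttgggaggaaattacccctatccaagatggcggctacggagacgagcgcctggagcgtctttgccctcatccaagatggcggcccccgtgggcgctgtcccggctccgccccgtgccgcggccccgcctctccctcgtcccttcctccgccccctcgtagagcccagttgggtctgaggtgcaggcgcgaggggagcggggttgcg
Elovl5: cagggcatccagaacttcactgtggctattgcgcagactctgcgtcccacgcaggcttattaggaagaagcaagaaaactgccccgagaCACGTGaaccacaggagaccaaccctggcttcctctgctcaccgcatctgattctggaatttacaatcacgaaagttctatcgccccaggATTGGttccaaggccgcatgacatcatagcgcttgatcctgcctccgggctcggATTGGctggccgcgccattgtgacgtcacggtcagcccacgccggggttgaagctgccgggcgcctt
The Acsl1 window held CCAAT at -172 and -49 and the sterol response element core at -76, which 1.24% of the 32851 RefSeq windows hold. The Elovl1 window held a DR1 at -95, found in 0.381% of all windows, and within it the only AGGTCA among the members, against 16.3% of all windows. Elovl5 held the only E-box, at -161, against 7.15% of all windows, and CCAAT at -71 and -17. CCAAT itself was in 8 of the 12 windows against 37.4% of all windows. The windows of Hacd2 and Acsl4 and the upstream window of Acsl1 held none of these letters, and the upstream window of Elovl1 held only CCAAT, at -35. For Acsl1 and Elovl1 the window shown is thus the one of the 2 with the rarer letters. The C/EBP core, present in 2.08% of all windows, was in none of the 12. These matches are descriptions of letters and say nothing of binding, and the gene counts do not tell which start the cells used.

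The median library held 12916162 counts, with a range of 11437058 to 25523148 and the highest total in JMJD1A(WT) replicate 3. Levels are TMM-scaled CPM, computed within each set, where CPM is the count of a gene relative to the total of its library, and as CPM per kilobase of exon (RPKM) where genes are set side by side. Kdm3a had 171, 174 and 185 CPM in sh-Empty and 129, 128 and 138 CPM in sh-Jmjd1a cells, without overlap. With LacZ it had 119 ± 2.62 CPM, with JMJD1A(WT) 1689.8 ± 69.0 CPM and with JMJD1A(H1122A) 2197 ± 92.2 CPM (SD, n = 3 each), and reads of the construct and of the gene were not told apart. Of 8 adipocyte markers (Pparg, Cebpa, Fabp4, Plin1, Adipoq, Lpl, Cd36, Cidec) all were detected. All 4 skeletal muscle markers were at 0, and the summed level of the endothelial markers was at most 0.849 CPM, of the epithelial markers 0.367 CPM and of the macrophage markers 4.05 CPM in any library.

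Per length, a transcript of the elongation cycle, Hacd2, was the most abundant of the 10 in control cells. It stood in sh-Empty cells at 179.7 ± 3.86 RPKM (SD, n = 3) and was followed by Tecr at 94.8 ± 6.37 and Acsl1 at 93.4 ± 2.18 RPKM, which did not differ beyond their spread. Hsd17b12 at 57.0 ± 0.792, Elovl1 at 54.2 ± 0.997, Acsl4 at 31.2 ± 0.312 and Elovl5 at 26.2 ± 0.221 RPKM came next, and Acsl5 at 12.4 ± 0.581, Acsl3 at 4.69 ± 0.852 and Acss2 at 1.43 ± 0.0830 RPKM were lowest. In sh-Jmjd1a cells the order was another one. Tecr led at 83.9 ± 3.03 RPKM ahead of Hacd2 at 71.1 ± 1.23, and Acsl1 at 23.98 ± 0.675 RPKM lay within the spread of Acsl4 at 23.5 ± 0.581 and Elovl1 at 22.7 ± 2.24. These orders use the joined length of all exons of a gene. With the longest transcript as the length, the sh-Empty levels of Acsl1 and Acss2 became 157 and 4.02 RPKM, and Elovl1 at 81.6 RPKM then stood above Hsd17b12 at 72.2 RPKM. In sh-Jmjd1a cells the same choice gave 40.2 RPKM for Acsl1, 34.1 for Elovl1 and 24.1 for Acsl4, so that the 3 were no longer close.

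**Figure D1:**
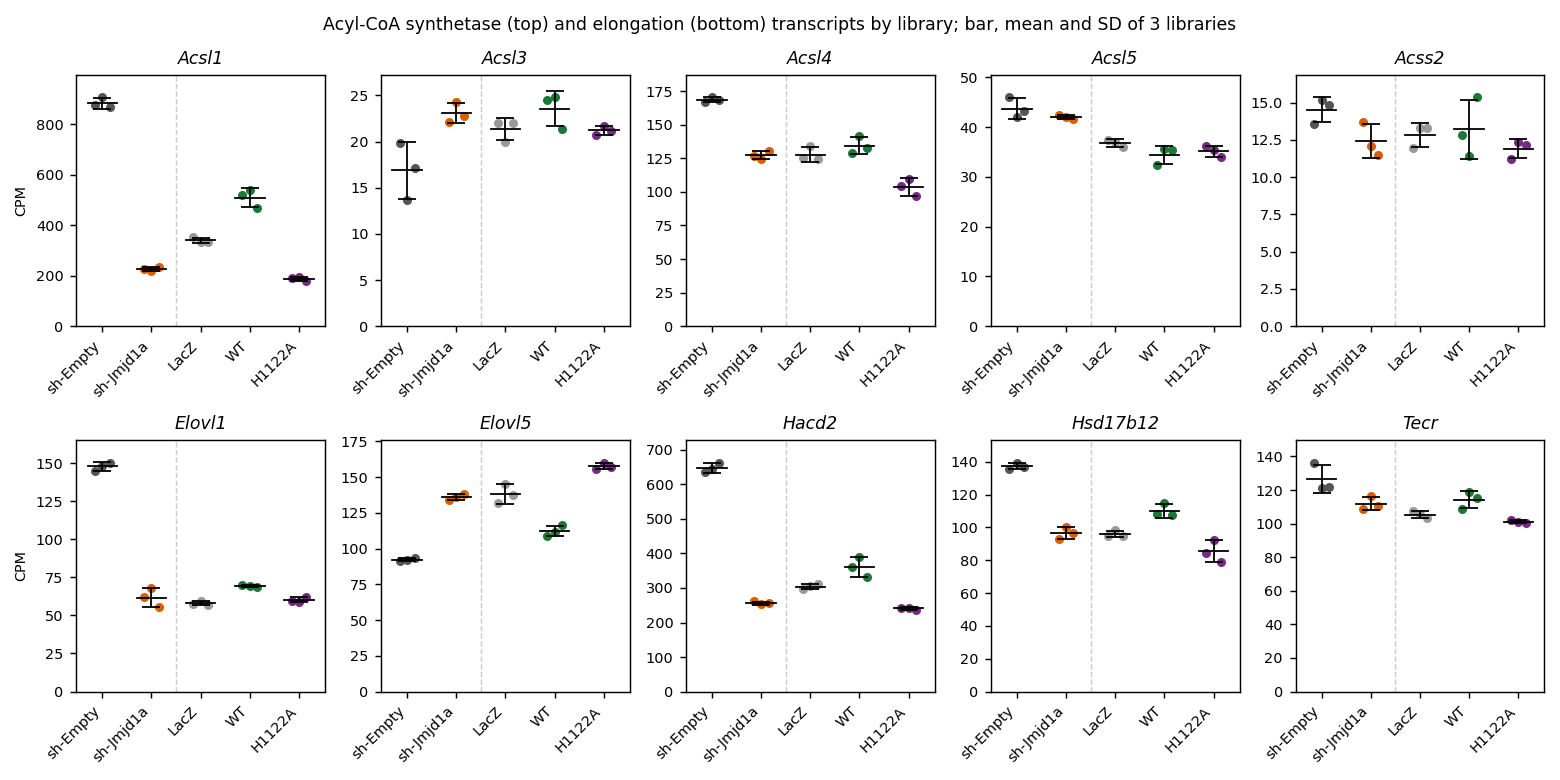
CPM of the 10 transcripts (y axes, each from 0) in the 5 groups (x axis; the dashed line parts the knockdown set from the rescue set); points are libraries, lines and bars are the mean and SD of 3. Acsl1, Elovl1 and Hacd2 drop steeply from sh-Empty to sh-Jmjd1a cells, Elovl5 runs the other way, and the Acsl5 and Acss2 points of sh-Empty and sh-Jmjd1a overlap.

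On knockdown, 6 of the 10 transcripts fell (Acsl1, Hacd2, Elovl1, Hsd17b12, Acsl4 and Tecr) and 2 rose (Elovl5 and Acsl3) at an adjusted p under 0.05 by the quasi-likelihood F test of edgeR, adjusted over all genes by the method of Benjamini and Hochberg, the test behind every adjusted p below. Among all 12272 genes tested in that set, 23.9% were lower and 22.3% were higher. The median log2 fold change of the 10 was -0.32, beside 0.00 for all genes tested. All 8 adipocyte markers fell as well, from a summed 5223 to 5306 CPM per library in sh-Empty to 2679 to 2823 CPM in sh-Jmjd1a cells. Of the 8 preadipocyte and fibroblast markers 2 fell and 5 rose, with sums of 7867 to 8089 and of 12679 to 13428 CPM. Most of the rise in that sum came from Col1a1 (means of 1168 and 3122 CPM) and Col1a2 (3033 and 6068 CPM). Lpl held most of the adipocyte sum, at 3945 and 2355 CPM, so neither sum stands for its whole list. The part of these marker changes in the results for the 10 transcripts was not tested. In bulk RNA, fewer cells of a type cannot be told apart from less RNA per cell.

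Adding JMJD1A(WT) to knockdown cells raised 4 of the 10 (Acsl1, Elovl1, Hacd2 and Hsd17b12) above LacZ and lowered Elovl5, while of 12557 genes tested in this set 4.98% were higher and 4.52% lower. With JMJD1A(H1122A) in place of JMJD1A(WT), 6 were lower (the same 4 with Acsl4 and Tecr) and Elovl5 was higher, beside 11.7% lower and 12.1% higher of all genes. The 8 adipocyte markers all rose over LacZ with JMJD1A(WT) and all fell with JMJD1A(H1122A) relative to the wild type, with sums per library of 3391 to 3468 CPM with LacZ, 3886 to 4245 CPM with JMJD1A(WT) and 2605 to 2714 CPM with JMJD1A(H1122A). The sums of the preadipocyte and fibroblast markers were 14614 to 14873, 14045 to 14603 and 15599 to 16443 CPM in the same order. Lpl again held most of the adipocyte sums, and Col1a1 with Col1a2 most of the other sums. Of the 8 preadipocyte and fibroblast markers 3 were higher and 1 was lower with JMJD1A(WT), and 4 were higher and 2 lower for the mutant against the wild type. Ly6a and Dlk1 followed the adipocyte markers in all 3 comparisons, and the part of either list in the results was not tested. The median log2 fold change of the 10 was 0.12 for JMJD1A(WT) against LacZ and -0.20 for the mutant against the wild type, beside 0.00 for all genes in each. Acsl1, Elovl1, Hacd2 and Hsd17b12 thus passed all 3 tests, lower, higher and lower in turn, as 296 of the 12202 genes tested in both sets did (2.43%). Elovl5 passed all 3 in the reverse directions, as 252 genes did (2.07%). The comparisons with JMJD1A(WT) share its libraries. All 10 members were chosen with earlier results of these data known. The number of them that passed all 3 tests, beside 2.43% and 2.07% of genes, is therefore not independent evidence. Hsd17b12 is in addition on a list that the study drew from these same samples. That list also holds Scd1, Adipor2 and Cers4, which are named below, and the markers Pparg, Fabp4, Cidec and Dlk1.

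**Figure D2:**
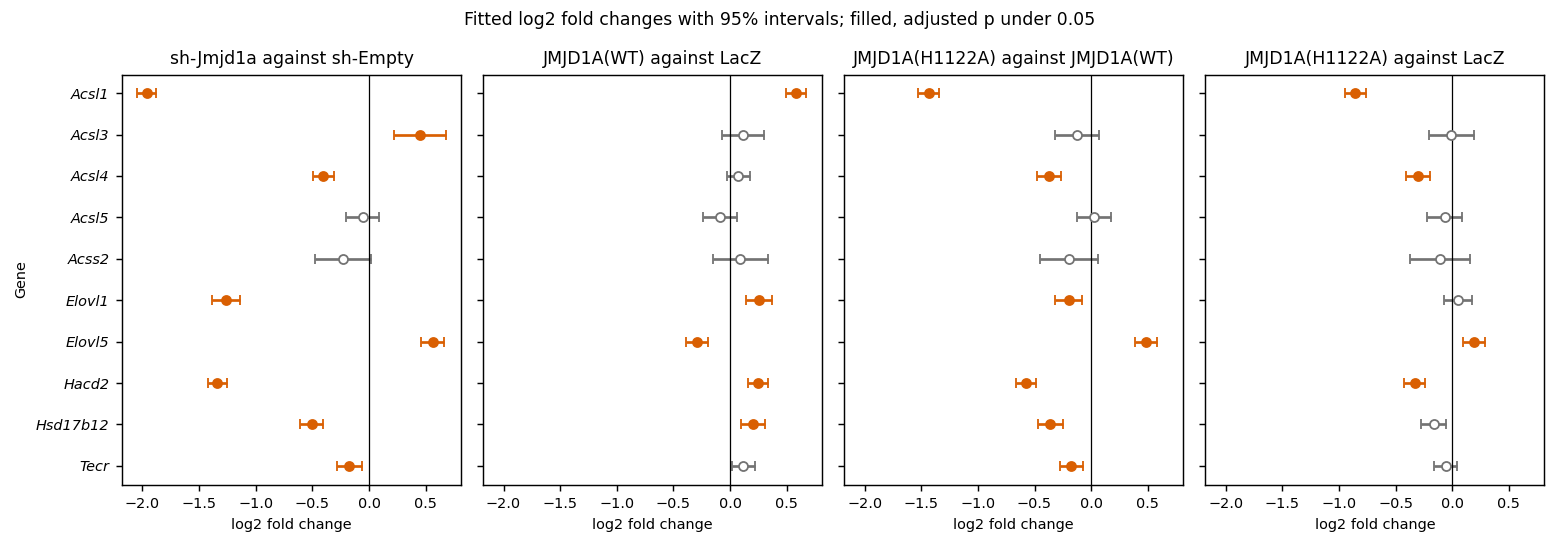
Fitted log2 fold changes (x axis, shared) of the 10 transcripts (y axis) in 4 comparisons; bars are 95% intervals and filled points have an adjusted p under 0.05. Acsl1 has the largest change of the 10 in each panel, from -1.96 on knockdown to 0.58 with JMJD1A(WT), and Elovl5 lies on the opposite side of 0 from Acsl1 in all 4.

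Acsl1 lies on chromosome 8 of NCBIM37, the assembly of mm9, from 47556395 to 47621405 on the plus strand. It had 875, 906 and 867 CPM in sh-Empty and 226, 220.3 and 233 CPM in sh-Jmjd1a cells. It had 353, 332 and 333 CPM with LacZ, 521, 539.6 and 467 CPM with JMJD1A(WT), and 189.6, 194 and 179 CPM with JMJD1A(H1122A). No library overlapped with another group of its set, sh-Empty was far above sh-Jmjd1a, and the mutant stood below LacZ. The knockdown change was -1.96 on the log2 scale (SE 0.040, edgeR adjusted p = 2.33e-24), a 3.90-fold fall. JMJD1A(WT) raised it by 0.58 over LacZ (SE 0.043, edgeR adjusted p = 1.12e-13), and with JMJD1A(H1122A) it was 2.71-fold lower than with JMJD1A(WT) and 1.81-fold lower than with LacZ (edgeR adjusted p = 3.57e-26 and 1.18e-17).

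Acsl4, which prefers arachidonate and other polyunsaturated fatty acids, lies on chromosome X from 138752536 to 138825078 on the minus strand. Its levels were 167, 170.3 and 169 CPM in sh-Empty and 127, 125 and 131 CPM in sh-Jmjd1a cells. In the rescue set they were 125, 134 and 124 CPM with LacZ, 129, 141 and 133 CPM with JMJD1A(WT) and 104, 109.9 and 97.0 CPM with JMJD1A(H1122A). LacZ and JMJD1A(WT) overlapped, whereas the mutant stood below both. The fall on knockdown was -0.41 (SE 0.046, edgeR adjusted p = 2.25e-08). The difference of JMJD1A(WT) from LacZ was 0.07 with a 95% interval from -0.03 to 0.17 (edgeR adjusted p = 0.461). JMJD1A(H1122A) was lower than LacZ by -0.30 (SE 0.052, edgeR adjusted p = 6.49e-05).

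Acsl3, a synthetase of the endoplasmic reticulum and of lipid droplets, rose on knockdown. It had 19.8, 13.7 and 17.2 CPM in sh-Empty and 22.2, 24.3 and 22.8 CPM in sh-Jmjd1a cells, groups that did not overlap although sh-Empty was widely spread. The change was 0.45 (SE 0.111, edgeR adjusted p = 0.00136). The 3 rescue groups overlapped, between 19.97 and 24.8 CPM. JMJD1A(WT) differed from LacZ by 0.12 and JMJD1A(H1122A) from JMJD1A(WT) by -0.12, which did not pass (edgeR adjusted p = 0.541 and 0.382). Acsl3 lies on chromosome 1 from 78654400 to 78703562 on the plus strand and shares exon sequence with Utp14b on the same strand, which had 2.79 and 4.15 CPM in sh-Empty and sh-Jmjd1a cells and also rose (0.56, edgeR adjusted p = 0.0456). Reads of the shared exons cannot be assigned to either gene from the counts.

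Acsl5 (chromosome 19, 55327859 to 55371117, plus strand), known from the intestine and mitochondria, passed no test. It lay between 41.6 and 45.99 CPM in the knockdown set and between 32.3 and 37.5 CPM in the rescue set, and its knockdown change was -0.06 with a 95% interval from -0.20 to 0.09. All LacZ libraries lay above the JMJD1A(WT) libraries, with a difference of -0.09 that did not pass (edgeR adjusted p = 0.545). Acss2 (chromosome 2, 155343684 to 155411460, plus strand) passed no test either. It was the lowest member, with 142 to 395 counts per library, and its knockdown change was -0.23 with a 95% interval from -0.48 to 0.02 (edgeR adjusted p = 0.12). Its exons overlap Gss, Ggt7 and 4930471I20Rik on the opposite strand, and the strand setting of the counting is not given in the sources used here. Gss itself fell on knockdown, from 24.9 to 19.5 CPM (-0.36, edgeR adjusted p = 0.00302).

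The makeup of the Acsl transcripts differed between the groups, with Acsl1 holding less of the pool in sh-Jmjd1a cells. Acsl1 held 65.2, 67.02 and 65.6% of the reads per kilobase of the 4 Acsl genes in sh-Empty libraries and 36.5, 35.9 and 36.8% in sh-Jmjd1a libraries. In the rescue set its share was 48.4, 46.3 and 47.3% with LacZ, 58.0, 57.0 and 54.9% with JMJD1A(WT) and 36.3, 36.1 and 36.2% with JMJD1A(H1122A). No groups of a set overlapped, and each of the 4 differences had p = 0.1 in a two-sided exact permutation test, the smallest that 3 against 3 allows. The share of Acsl4 was 22.01 ± 0.266% in sh-Empty and 35.8 ± 0.345% in sh-Jmjd1a cells, and that of Acsl5 was 8.74 ± 0.431% and 18.1 ± 0.437% (SD, n = 3). For Acsl5 the gain in share came with a level that passed no test. With the longest transcript as the length the shares of Acsl1 were higher, 75.4 ± 0.822% in sh-Empty and 47.4 ± 0.569% in sh-Jmjd1a cells, and the groups were again apart.

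Hacd2, the dehydratase, had the largest fitted fall of the 5 elongation enzymes on knockdown, with that of Elovl1 close to it. The annotation names it Ptplb and places it on chromosome 16 from 35022507 to 35109261 on the plus strand. Its levels were 636, 643 and 663 CPM in sh-Empty and 261, 252 and 255 CPM in sh-Jmjd1a cells. With LacZ it had 296, 305 and 310.2 CPM, with JMJD1A(WT) 359.6, 389.7 and 332 CPM, and with JMJD1A(H1122A) 243, 243 and 237 CPM. The groups of each set were apart, with sh-Empty and JMJD1A(WT) high and the mutant lowest in its set. The fall on knockdown was 2.53-fold (-1.34 on the log2 scale, SE 0.039, edgeR adjusted p = 6.77e-21). The gain over LacZ was 0.24 (SE 0.043, edgeR adjusted p = 5.08e-05), and the mutant was lower than LacZ by -0.33 (SE 0.045, edgeR adjusted p = 4.57e-07).

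Elovl1, the elongase of saturated and monounsaturated very long chains, had 145, 148 and 150.3 CPM in sh-Empty and 62.0, 67.8 and 55.6 CPM in sh-Jmjd1a cells. In the rescue set it had 57.6, 59.4 and 57.1 CPM with LacZ, 69.7, 69.1 and 68.7 CPM with JMJD1A(WT) and 59.5, 59.1 and 62.0 CPM with JMJD1A(H1122A). JMJD1A(WT) stood above the other groups of its set, while LacZ and the mutant overlapped. The fall was 2.40-fold on knockdown (-1.26 on the log2 scale, SE 0.059, edgeR adjusted p = 2.16e-16), the gain with JMJD1A(WT) 0.25 (SE 0.057, edgeR adjusted p = 0.00184) and the difference of the mutant from JMJD1A(WT) -0.20 (SE 0.058, edgeR adjusted p = 0.00876). Elovl1 lies on chromosome 4 from 118100698 to 118105558 on the plus strand, where its exons overlap those of Cdc20, a cell cycle gene on the other strand. Cdc20 went from 61.2 ± 0.821 to 68.5 ± 4.58 CPM on knockdown (SD, n = 3), a rise of 0.16 (edgeR adjusted p = 0.0367). It differed by -0.16 for JMJD1A(WT) against LacZ and by 0.26 for the mutant against JMJD1A(WT) (edgeR adjusted p = 0.0765 and 0.000405). The strand setting of the counting is not given, and the part of shared exons in the Elovl1 counts was not tested.

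Elovl5 (chromosome 9, 77765171 to 77832326, plus strand) ran opposite to Elovl1. It had 91.5, 92.2 and 93.1 CPM in sh-Empty and 134, 136 and 138 CPM in sh-Jmjd1a cells. It had 132, 145 and 138 CPM with LacZ, 109, 112 and 116 CPM with JMJD1A(WT) and 156, 160.0 and 157 CPM with JMJD1A(H1122A). All groups of a set were apart, with sh-Empty and JMJD1A(WT) low and the mutant highest. The rise on knockdown was 0.56 (SE 0.049, edgeR adjusted p = 1.51e-10). JMJD1A(WT) lowered it by -0.29 (SE 0.047, edgeR adjusted p = 9.59e-06), and with the mutant it was higher than with JMJD1A(WT) by 0.49 and than with LacZ by 0.19 (edgeR adjusted p = 2.96e-11 and 0.00522).

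Within each library, the balance of the 2 elongases shifted. The log2 ratio of Elovl5 to Elovl1 reads was -0.66, -0.69 and -0.69 in sh-Empty and 1.11, 1.01 and 1.31 in sh-Jmjd1a libraries. It was 1.25 ± 0.051 with LacZ, 0.70 ± 0.057 with JMJD1A(WT) and 1.39 ± 0.049 with JMJD1A(H1122A) (SD, n = 3). No groups of a set overlapped, and each difference had p = 0.1 in the two-sided exact permutation test, the smallest possible. The ratio of raw reads follows the lengths of both genes, so its change between groups and not its sign is the measurement.

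**Figure D3:**
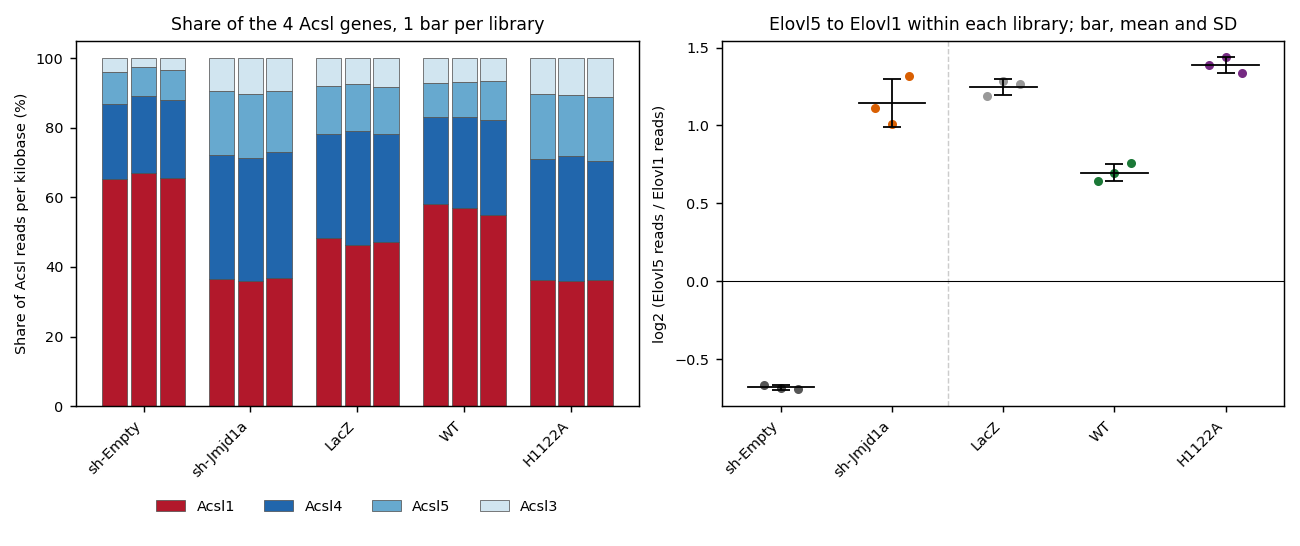
Left, the percent of reads per kilobase held by each of the 4 Acsl genes (y axis), 1 bar per library in the 5 groups; right, the log2 ratio of Elovl5 to Elovl1 reads (y axis) per library, with the mean and SD of 3. The Acsl1 share falls from 65.9 ± 0.954% in sh-Empty to 36.4 ± 0.507% in sh-Jmjd1a cells and is 56.6 ± 1.57% with JMJD1A(WT), and the ratio is higher in sh-Jmjd1a than sh-Empty libraries and lower with JMJD1A(WT) than with LacZ.

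Hsd17b12, the ketoreductase of the cycle, lies on chromosome 2 from 93872846 to 93998121 on the minus strand. It had 136, 139 and 137 CPM in sh-Empty, 93.0, 100.1 and 96.4 CPM in sh-Jmjd1a, 94.7, 98.3 and 94.8 CPM with LacZ, 108, 115 and 108 CPM with JMJD1A(WT) and 84.4, 92.6 and 79.3 CPM with JMJD1A(H1122A). The groups of each set did not overlap. It fell by 0.51 on the log2 scale on knockdown (SE 0.050, edgeR adjusted p = 1.54e-09) and rose by 0.20 with JMJD1A(WT) (SE 0.053, edgeR adjusted p = 0.00923). The mutant was at -0.36 from JMJD1A(WT) (SE 0.054, edgeR adjusted p = 1.04e-06) and at -0.16 from LacZ, which missed the threshold (edgeR adjusted p = 0.0551).

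Tecr, the last reductase of the cycle, moved the least of the enzymes that fell. It lies on chromosome 8 from 86095599 to 86118390 on the minus strand and had 136, 121 and 122 CPM in sh-Empty and 109, 116 and 110.3 CPM in sh-Jmjd1a cells, with sh-Empty replicate 1 well above the rest. The change was -0.17 (SE 0.053, edgeR adjusted p = 0.00833), and without sh-Empty replicate 1 it was -0.12 and no longer passed (edgeR adjusted p = 0.121). In the rescue set it lay between 103 and 107 CPM with LacZ, 109 and 119 CPM with JMJD1A(WT) and 101 and 102 CPM with the mutant. The mutant was lower than JMJD1A(WT) by -0.18 (SE 0.050, edgeR adjusted p = 0.00678), and the gain of JMJD1A(WT) over LacZ, 0.12, had a 95% interval from 0.02 to 0.22 but missed the adjusted threshold (edgeR adjusted p = 0.143).

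The mutant was also set against LacZ. In JMJD1A(H1122A) cells Acsl1, Acsl4 and Hacd2 lay below their LacZ level and Elovl5 above it, 3 and 1 of the 10, beside 4.46% lower and 4.78% higher of all genes. All 8 adipocyte markers were lower in the same comparison, and of the 8 preadipocyte and fibroblast markers 4 were higher and 1 was lower. Elovl1 differed from LacZ by 0.05 with a 95% interval from -0.07 to 0.17.

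How far the wild-type construct made up for the knockdown was tested by adding the gain with JMJD1A(WT) over LacZ to the change on knockdown, in a fit of all 15 libraries, where 0 means equal sizes and opposite signs. The sum was -1.37 for Acsl1 (SE 0.060, edgeR adjusted p = 1.83e-23), -1.08 for Hacd2 (SE 0.059, edgeR adjusted p = 4.21e-20) and -0.998 for Elovl1 (SE 0.082, edgeR adjusted p = 4.50e-14). For these 3 the gain was well under the loss. The gains started from LacZ and not from sh-Jmjd1a cells, and these 2 levels, scaled within each set, were not always equal. Acsl1 had a mean of 227 CPM in sh-Jmjd1a cells and 340 CPM with LacZ, Hacd2 256 and 304 CPM, and Elovl1 61.8 and 58.1 CPM. Acsl4 at -0.32 and Hsd17b12 at -0.30 were also below 0 (edgeR adjusted p = 0.000177 and 0.00108). For Acsl4 the gain with JMJD1A(WT), 0.07, passed no test (edgeR adjusted p = 0.461), so its sum shows no partial making up. Elovl5 at 0.28 and Acsl3 at 0.58 were above 0 (edgeR adjusted p = 0.000963 and 0.00136). For Elovl5 the fall with JMJD1A(WT) was thus smaller than the rise on knockdown. For Acsl3 the difference of JMJD1A(WT) from LacZ, 0.12, passed no test and had the same sign as the rise on knockdown. Its sum therefore measures no making up. That made 5 lower and 2 higher of the 10, where 15.7% and 17% of all 12758 genes tested were lower and higher. The sums of Tecr, Acsl5 and Acss2, -0.05, -0.14 and -0.13, did not pass. Acsl5 and Acss2 had no called change on knockdown and Tecr no called gain with JMJD1A(WT), so these sums do not show a full making up.

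Across the 15 libraries, on log2(CPM + 0.5), the gene most like each member by Pearson's r among 11886 genes was Slc5a6 for Acsl1 (0.991), Hace1 for Acsl3 (0.917), Ran for Acsl4 (0.978), Sirpa for Acsl5 (0.937), Ahcyl1 for Acss2 (0.843), Ginm1 for Elovl1 (0.991), Svil for Elovl5 (0.987), Lrig1 for Hacd2 (0.994), Adipor2 for Hsd17b12 (0.989) and Hmgxb3 for Tecr (0.936). Slc5a6 is a transporter of biotin and pantothenate, and Adipor2 is a receptor of adiponectin. Among the members, Acsl1 and Hacd2 were most alike at 0.965, Acsl4 and Hsd17b12 followed at 0.958, and Elovl5 was most unlike Hsd17b12 at -0.958 and Acsl1 at -0.956. The libraries share 5 groups in 2 sets, so these values describe the group pattern.

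The other genes of acyl-CoA metabolism were counted from lists drawn up by enzyme family, and each count is to be read beside the 23.9% lower and 22.3% higher of all genes on knockdown. Of 8 further acyl-CoA synthetases tested on knockdown, out of 19 listed, 3 passed the test, all of them lower. Slc27a1, a fatty acid transport protein with synthetase activity, fell from 34.3 ± 1.39 to 24.97 ± 1.34 CPM (-0.45, edgeR adjusted p = 5.12e-05), and Acsf2 from 63.2 ± 2.64 to 48.7 ± 1.55 CPM (-0.38, edgeR adjusted p = 1.91e-05; SD, n = 3). Of 5 further elongation enzymes tested, out of 9 listed, 2 passed, again lower. Elovl6, the elongase of palmitate, fell from 103 ± 5.06 to 60.1 ± 1.12 CPM (-0.78, edgeR adjusted p = 4.05e-12), and Hacd3 by 0.37 on the log2 scale (edgeR adjusted p = 1.30e-06). Neither passed with JMJD1A(WT), with differences from LacZ of -0.07 and -0.01 (edgeR adjusted p = 0.522 and 0.927). Hacd3 was higher with the mutant than with JMJD1A(WT) (0.18, edgeR adjusted p = 0.0169), and Elovl6 was lower with the mutant than with LacZ (-0.18, edgeR adjusted p = 0.0376).

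Acyl-CoA thioesterases split acyl-CoA into free fatty acid and coenzyme A, the reverse of the synthetases. Of 7 tested on knockdown, out of 16 listed, 4 passed, all of them higher, beside 22.3% of all genes. In each of the 3 rescue comparisons 0 of 7 passed with edgeR or with DESeq2. Only 1 had an unadjusted p under 0.05 in edgeR, for the mutant against the wild type. Few of all genes passed either, with 4.52% lower and 4.98% higher for JMJD1A(WT) against LacZ, and 4.46% and 4.78% for the mutant against LacZ. For the mutant against the wild type 11.7% were lower and 12.1% higher. With 7 genes, 0 calls cannot be told apart from these shares. On knockdown, Acot2 rose from 2.62 ± 0.829 to 6.53 ± 0.503 CPM (1.26, edgeR adjusted p = 2.51e-05) and Acot1 by 0.90 (edgeR adjusted p = 0.0107). Both are near-identical copies between which reads can be split, and both were low. Of 5 acyl-CoA binding proteins tested, out of 7 listed, 2 passed and were lower, beside 23.9% of all genes. Dbi, which binds long-chain acyl-CoA in the cytosol, fell from 265 ± 2.98 to 107 ± 4.66 CPM (-1.30, edgeR adjusted p = 3.43e-19), rose by 0.34 with JMJD1A(WT) and was lower by -0.50 with the mutant (edgeR adjusted p = 2.16e-06 and 1.27e-10). Acbd6 fell by 0.28 on the log2 scale on knockdown (edgeR adjusted p = 0.00466). Of 6 desaturases tested, out of 8 listed, 3 fell and 1 rose, beside 23.9% and 22.3% of all genes. Scd1, which makes oleate from stearate as its CoA ester, fell from 576 ± 10.8 to 189 ± 6.94 CPM (-1.61, edgeR adjusted p = 2.96e-22) and rose by 0.57 with JMJD1A(WT) (edgeR adjusted p = 1.37e-11). Scd2 fell by 0.60 on the log2 scale (edgeR adjusted p = 1.54e-14), and Scd3, at 2.64 and 1.13 CPM a low transcript, by 1.23 (edgeR adjusted p = 0.00785). Fads1, a desaturase of polyunsaturated chains, rose by 0.37 (edgeR adjusted p = 4.54e-05).

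**Figure D4:**
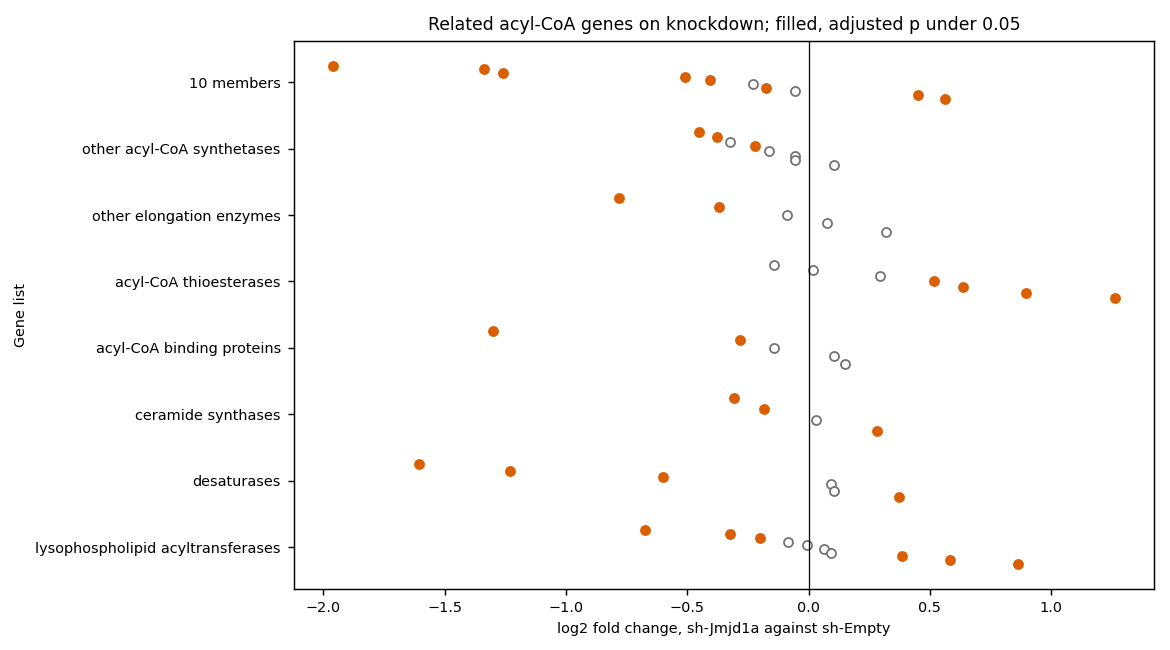
Log2 fold change on knockdown (x axis) of the 10 members and of the tested genes of 7 related lists (y axis), 1 point per gene; filled points have an adjusted p under 0.05. All 4 filled thioesterases lie above 0 and all filled synthetases and elongation enzymes of the related lists lie below 0, while 2 of the members lie above it.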

How the data were processed

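RNA from 15 libraries of 3T3-L1 cells was measured by poly(A) RNA-seq. Per the labels and methods, the authors used fastp for trimming, HISAT2 for alignment to mm9 and featureCounts for counting per Entrez gene, and deposited the raw counts without normalization. The paper names a directional library kit, and the labels a kit whose name, as given there, does not mention strand. The counting annotation and strand setting are not given in the sources used here.

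Symbols (24191 of 26301) and promoter windows came from RefSeq tables of GRCm38.p6, coordinates and exon lengths from GENCODE M1 on NCBIM37. The fits used edgeR 4.0.16 under R 4.3.3 (TMM, filterByExpr with a minimum count of 10, robust quasi-likelihood F test, Benjamini-Hochberg adjustment, threshold 0.05), the 6 knockdown and the 9 rescue libraries apart, and all 15 for the sum of gain and loss. The procedure was tested on simulated data. Replicate libraries differed by more than sampling noise (chi-square per degree of freedom of 2.06 to 5.46 over 15 pairs). All 10 members and Kdm3a were named, and from each list the genes called in all 3 comparisons and the 2 largest falls and rises on knockdown with a mean of at least 1 CPM, besides the gene most like each member and genes whose exons overlap a member. The members and lists were chosen with earlier results of these data known. Alternatives were DESeq2 1.42.0, other size factors, filters, fits and thresholds, a replicate block, gene length and each library left out.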

Additional observations from a re-analysis of the deposited data

How the results depend on the processing

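Over 1000 recomputed values of the 10 transcripts, 985 kept their direction and side of the threshold, 1 lost its call, 7 gained one and 7, all uncalled, changed sign. The numbers of members called in 3 tests together, 4 and 1, were the same under every alternative run. The lost call was Tecr on knockdown without sh-Empty replicate 1. The 7 gained were Hsd17b12 with JMJD1A(H1122A) against LacZ, whose adjusted p ranged from 0.0154 to 0.302 over the alternatives. Sign changes were in Acsl3 with JMJD1A(H1122A) against LacZ (-0.0530 to 0.0154 with each library left out), Acsl5 with JMJD1A(H1122A) against JMJD1A(WT) (-0.0091 to 0.0536), the Tecr sum of gain and loss (-0.0803 to 0.0046) and Acss2 with JMJD1A(WT) against LacZ (-0.0793 to 0.17, and -0.0686 with libraries thinned to 11437058 counts, an alternative chosen after seeing the data); the cause was not tested. Over all genes, JMJD1A(H1122A) against LacZ gave 298 higher and 278 lower genes at an adjusted p under 0.01, and 348 to 651 higher and 326 to 605 lower with each library left out, the lowest without JMJD1A(H1122A) replicate 1; without LacZ replicate 3, 380 were higher. JMJD1A(WT) against LacZ gave 307 lower at 0.01. Deviations of libraries with the same replicate number were not correlated (r of -0.0442 to 0.0541), so the numbers were not taken to pair them. With the replicate block, JMJD1A(H1122A) against LacZ had 4 members lower instead of 3, Hsd17b12 being added (-0.17, edgeR adjusted p = 0.0254), and no other member call changed. Acss2 and Acsl3 had the fewest counts of the members, 142 to 395 and 159 to 549 per library.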

Other observations

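The enzymes that use long acyl-CoAs as substrates were counted by family on knockdown, where 23.9% of all genes tested were lower and 22.3% higher. Of 4 ceramide synthases tested on knockdown, 2 fell and 1 rose, by the quasi-likelihood F test of edgeR after Benjamini-Hochberg adjustment. Cers4 is on the study's own list, drawn from these samples and from its histone methylation data, and so is not independent evidence. It had 57.8 ± 5.46 CPM in sh-Empty, 46.4 ± 4.31 in sh-Jmjd1a, 44.1 ± 1.77 with LacZ, 77.1 ± 7.65 with JMJD1A(WT) and 44.2 ± 1.40 with JMJD1A(H1122A) (SD, n = 3). Its rise with JMJD1A(WT), 0.80 on the log2 scale (adjusted p = 6.76e-13), came with a fall on knockdown of -0.31 (adjusted p = 0.00159), and it was lower by -0.79 with the mutant (adjusted p = 5.61e-13). Cers6 ran the other way, at 0.28, -0.19 and 0.21 in these comparisons (adjusted p = 0.00197, 0.0219 and 0.00454). Cers2 fell with the knockdown (-0.18) and also with JMJD1A(WT) (-0.18, adjusted p = 0.00157 and 0.0104). It was higher by 0.20 with the mutant than with JMJD1A(WT) (adjusted p = 0.00196).

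Of 10 lysophospholipid acyltransferases tested, 3 fell and 3 rose on knockdown, shares near those of all genes. Lpcat3, which places polyunsaturated chains into phospholipids, fell from 124 ± 6.58 to 77.8 ± 3.05 CPM (-0.67, adjusted p = 3.87e-11) and rose by 0.20 with JMJD1A(WT) (adjusted p = 0.010). With the mutant it was at -0.19 from JMJD1A(WT) (adjusted p = 0.00842). Agpat5 and Agpat3 fell by 0.32 and by 0.20 on the log2 scale (adjusted p = 0.000401 and 0.00594). Lpcat2 rose from 8.45 ± 0.903 to 15.2 ± 1.34 CPM (0.86, adjusted p = 4.17e-06) and Lpcat1 by 0.58 (adjusted p = 1.60e-07), the adjusted p-values being from the same edgeR test.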
